A study of Homo sapiens with 6 samples.

Results

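The expression of 31 genes of glycolysis and lactate export was examined in HK2 cells that overexpressed SIRT4. The genes are a list of symbols that runs from glucose uptake to the export of lactate and the import of pyruvate into mitochondria. They were looked up by symbol among the 38100 genes of the deposited tables. All 31 were found, and all 31 passed the filter on low counts that left 17720 genes to test.

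HK2 is an established line of human proximal tubular epithelial cells, of wild-type genotype in the labels, and the cell line shares its name with the gene HK2 (hexokinase 2), which is one of the 31 genes. One group of 3 samples carried a control adenovirus with an empty vector (AdCtrl) and another group of 3 carried an adenovirus for SIRT4 (AdSirt4). Both groups had been stimulated with TGF-β1, so every value below comes from infected and TGF-β1-stimulated cells, and uninfected or unstimulated cells were not analysed here. The comparison asks which mRNA levels differed once SIRT4, a sirtuin known as a mitochondrial enzyme, was overexpressed.

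SIRT4 itself had CPM (counts scaled to the size of each library) of 0.573, 1.11 and 1.11 in AdCtrl against 51.2, 92.7 and 84.0 in AdSirt4. Its level was lowest in AdSirt4 replicate 1 within its group, and its log2 fold change was 6.36 (SE 0.36, edgeR adjusted p = 0.0080). Total counts per sample ranged from 41537353, in AdSirt4 replicate 1, to 85684748. In AdSirt4 replicate 1 short genes had higher counts and long genes lower counts than in the other AdSirt4 samples, with a Spearman correlation of -0.59 between gene length and the difference across 17558 genes, and genes are no independent replicates. The main results are therefore also given without this sample. The study's checklist says that n in vitro means technical replicates, while its statistics section speaks of independent experiments, and which applies to the sequenced samples is not given. Where the former holds for these libraries, SDs and p-values measure technical spread. Of 10 proximal tubule markers, 7 stayed under 1 CPM in every sample, among them LRP2, CUBN and AQP1. The summed level of the 10 was 241 to 265 CPM in AdCtrl and 222 to 236 CPM in AdSirt4. Most of that sum was GGT1, with 227 to 247 CPM in AdCtrl and 210 to 220 CPM in AdSirt4. The 10 renal epithelial markers, led by the keratins KRT8 and KRT18, summed to 1865 to 1906 and 1762 to 2346 CPM, with CDH1 under 1 CPM throughout.

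Glycolysis splits glucose into pyruvate in the cytosol. Pyruvate then either enters mitochondria through the MPC1 and MPC2 carrier or is reduced to lactate by lactate dehydrogenase and leaves the cell through monocarboxylate transporters. Healthy proximal tubules burn mainly fatty acids and make glucose rather than consume it, while injured or cultured tubular cells rely more on glycolysis. Many glycolytic genes are textbook targets of the hypoxia-inducible factor HIF-1, which binds DNA at sites with the core ACGTG or GCGTG.

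The 6 members with the smallest p-values lay higher in AdSirt4. They were PFKFB3, PFKFB4, SLC2A1, LDHA, PGK1 and SLC16A3, which cover the control of phosphofructokinase, glucose uptake, the first ATP-yielding step, lactate production and lactate export. In each of the 6, the lowest AdSirt4 sample was above the highest AdCtrl sample. Their mean differences ran from 0.27 to 0.85 on the log2 scale, and edgeR's quasi-likelihood test gave all 6 an unadjusted p under 0.05. None of the 31 genes passed an adjusted p of 0.05 in that test with all 6 samples.

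The promoter windows of 5 of these 6 genes, with 1 window searched per gene, carry at least 1 HIF-type core. Such a core occurred in 71.4% of the members' windows and in 60.5% of the windows of tested genes. The 6 genes were picked by their p-values, and only the windows with a core are printed. Each sequence is the RefSeq window on GRCh38.p14 from 250 bases before to 50 bases after the annotated start, read 5′ to 3′ on the strand of the gene. Capitals mark ACGTG or GCGTG on either strand, so that CACGT and CACGC in capitals are the same letters read from the opposite strand.
PFKFB3 (chr10:6144671-6144970, plus strand): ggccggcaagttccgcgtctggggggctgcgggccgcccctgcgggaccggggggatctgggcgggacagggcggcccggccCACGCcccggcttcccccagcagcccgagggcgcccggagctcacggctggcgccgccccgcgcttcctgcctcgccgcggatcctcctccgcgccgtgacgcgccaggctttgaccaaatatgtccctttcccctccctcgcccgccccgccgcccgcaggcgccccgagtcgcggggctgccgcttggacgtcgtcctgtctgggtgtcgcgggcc
PFKFB4 (chr3:48556754-48557053, minus strand): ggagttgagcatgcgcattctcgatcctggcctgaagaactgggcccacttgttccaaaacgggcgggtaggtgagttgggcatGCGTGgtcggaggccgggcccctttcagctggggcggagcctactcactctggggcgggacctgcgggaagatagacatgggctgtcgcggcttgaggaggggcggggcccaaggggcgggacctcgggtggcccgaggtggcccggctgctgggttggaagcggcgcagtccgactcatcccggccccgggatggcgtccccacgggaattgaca
SLC2A1 (chr1:42958819-42959118, minus strand): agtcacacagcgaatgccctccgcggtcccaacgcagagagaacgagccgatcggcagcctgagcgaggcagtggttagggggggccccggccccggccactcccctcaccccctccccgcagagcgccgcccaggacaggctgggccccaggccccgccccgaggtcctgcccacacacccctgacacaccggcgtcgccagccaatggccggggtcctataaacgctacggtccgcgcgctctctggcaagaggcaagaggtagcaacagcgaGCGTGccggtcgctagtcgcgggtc
LDHA (chr11:18394313-18394612, plus strand): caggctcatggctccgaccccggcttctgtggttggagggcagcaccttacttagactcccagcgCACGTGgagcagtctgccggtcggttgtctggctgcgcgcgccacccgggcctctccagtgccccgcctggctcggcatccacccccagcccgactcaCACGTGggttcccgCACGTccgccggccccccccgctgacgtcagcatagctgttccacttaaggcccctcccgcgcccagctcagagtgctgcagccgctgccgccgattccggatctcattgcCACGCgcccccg
PGK1 (chrX:78103998-78104297, plus strand): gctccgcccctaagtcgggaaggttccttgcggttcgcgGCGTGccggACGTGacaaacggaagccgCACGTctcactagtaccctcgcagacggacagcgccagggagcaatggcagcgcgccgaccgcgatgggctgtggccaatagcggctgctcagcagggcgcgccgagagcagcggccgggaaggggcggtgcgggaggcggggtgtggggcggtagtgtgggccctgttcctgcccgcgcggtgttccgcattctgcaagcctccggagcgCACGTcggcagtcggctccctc

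The LDHA window held 6 core matches, the most of any member, and 2 of its sites were the palindrome CACGTG, which contains ACGTG on both strands and so counts once for each. PGK1 held 4, and PFKFB3, PFKFB4 and SLC2A1 held 1 each. The SLC16A3 window held none. Members outside these 6 held cores too, with 5 in ALDOC, 3 in HK2 and 2 each in GAPDH, ENO1, ENO3 and MPC1. The windows of HK1, PFKM, PFKP, TPI1, PGAM1, MPC2 and PGM1 held none. Only 1 window per gene was searched, so a core at another start of the same gene would be missed. The PGAM1 window, for example, covers chr10:97427568-97427867, while the gene begins at 97426160. RefSeq windows were found for 28 of the 31 members (all but PFKFB2, SLC2A3 and SLC16A1), and ACGTG or GCGTG occurred in 20 of these 28 (71.4%), against 60.5% of the 13581 windows of tested genes. CACGTG occurred in 3 of the 28 (10.7%) and in 9.72% of the windows of tested genes. The members' windows were richer in G and C, with a median of 69.3% against 64.7%. These matches describe letters in a window, and binding was not measured.

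PFKFB3 and PFKFB4 make bifunctional enzymes that set the level of fructose 2,6-bisphosphate, the strongest activator of phosphofructokinase-1. PFKFB3 (chr10:6144934-6254644, plus strand, GENCODE v29 on GRCh38, the build that all gene positions below use) had 119.8, 128 and 120.0 CPM in AdCtrl and 184, 223 and 257 CPM in AdSirt4. All 3 AdSirt4 samples were above the AdCtrl samples, and replicate 1 was the lowest of the 3. This was a 1.81-fold difference, with a log2 fold change of 0.85 (SE 0.14, n = 3 and 3, edgeR quasi-likelihood unadjusted p = 0.00045, adjusted p = 0.307). Without AdSirt4 replicate 1 it was 0.97, and the gene was called at an adjusted p of 2.1e-05.

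PFKFB4 (chr3:48517684-48562015, minus strand) was less abundant, at 13.5, 14.4 and 13.9 CPM in AdCtrl and 25.4, 25.2 and 21.4 CPM in AdSirt4. Again the groups did not overlap. Its log2 fold change was 0.78 (SE 0.11, adjusted p = 0.239), the smallest adjusted p of the 31 members, and it was 0.74 without AdSirt4 replicate 1, with an adjusted p of 0.0010. PFKFB2, the third isoform of the list, had 41.7, 41.5 and 44.3 CPM in AdCtrl and 31.5, 43.4 and 46.8 CPM in AdSirt4, with overlapping groups and a log2 fold change of -0.067 that became 0.081 without replicate 1.

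The glucose transporter GLUT1 is encoded by SLC2A1 (chr1:42925375-42959176, minus strand). It had 132, 124 and 138 CPM in AdCtrl and 173, 206 and 199 CPM in AdSirt4, so that the lowest AdSirt4 value was above the highest AdCtrl value. The log2 fold change was 0.56 (SE 0.11, unadjusted p = 0.0012, adjusted p = 0.461 in edgeR's quasi-likelihood test), and 0.63 with an adjusted p of 0.00027 without AdSirt4 replicate 1. SLC2A3, which encodes the high-affinity transporter GLUT3, had 99.3, 85.0 and 101 CPM in AdCtrl and 107, 113 and 103 CPM in AdSirt4. These groups also lay apart, but only narrowly, and the log2 fold change of 0.18 (SE 0.10) had an unadjusted p of 0.123 in the same edgeR test and was 0.18 without replicate 1.

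LDHA (chr11:18394388-18408425, plus strand) encodes the lactate dehydrogenase subunit that favors the reduction of pyruvate to lactate. It had 795, 737 and 722 CPM in AdCtrl and 1231, 1008 and 908 CPM in AdSirt4. The groups did not overlap, and here replicate 1 was the highest AdSirt4 sample. The log2 fold change was 0.48 (SE 0.15, adjusted p = 0.536) with that sample and 0.35 without it, where LDHA was called at an adjusted p of 0.011. PGK1 (chrX:77910739-78129296, plus strand), phosphoglycerate kinase, had 716, 714 and 638 CPM in AdCtrl and 1053, 885 and 827 CPM in AdSirt4. It behaved like LDHA, with separate groups, replicate 1 highest, a log2 fold change of 0.42 (SE 0.14, adjusted p = 0.553) and 0.31 (adjusted p = 0.017) without replicate 1.

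SLC16A3 (chr17:82228397-82261129, plus strand) encodes MCT4, the transporter that exports lactate from glycolytic cells. It had 203, 180.3 and 176 CPM in AdCtrl and 238, 224 and 212 CPM in AdSirt4, again without overlap. The log2 fold change was 0.27 (SE 0.11, adjusted p = 0.612) and 0.22 without AdSirt4 replicate 1, where it was not called (adjusted p = 0.071). Its exons share 482 bases with CSNK1D on the opposite strand, and reads in those bases cannot be told apart without strand. SLC16A1, which encodes the widely expressed transporter MCT1, had 209, 199 and 215 CPM in AdCtrl and 207, 198 and 199 CPM in AdSirt4, with overlapping groups and log2 fold changes of -0.042 with replicate 1 and -0.066 without it.

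**Figure D1:**
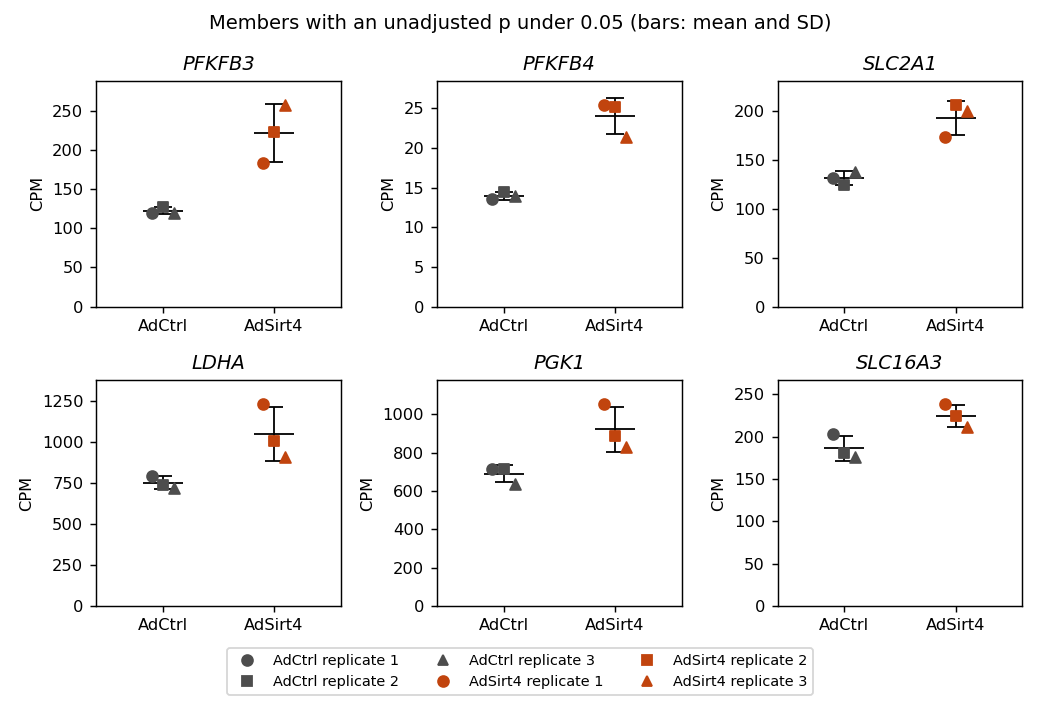
CPM of the 6 members with an unadjusted p under 0.05, each from 0 on its own linear axis, by group. Points are the 3 samples of AdCtrl and of AdSirt4, with marker shape giving the replicate number, and bars are the mean and SD. In all 6 panels the AdSirt4 points lie above the AdCtrl points. AdSirt4 replicate 1 is the lowest AdSirt4 point for PFKFB3 and SLC2A1 and the highest for PFKFB4, LDHA, PGK1 and SLC16A3.

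Counted over the list, 0 of 31 members were called at an adjusted p under 0.05 by edgeR's quasi-likelihood test, against 0.0113% of all 17720 genes. At an unadjusted p under 0.05 there were 6 members, or 19.4%, against 7.93% of all genes. All 6 were higher in AdSirt4, against 4.43% of all genes that passed in that direction. DESeq2 called 3 members, PFKFB3, PFKFB4 and SLC2A1, with 1.16% of all genes called. limma voom with sample quality weights called 8 members, of which 7 were higher and MPC1 was lower, with 9.51% of all genes called. Of the 31 log2 fold changes 22 were above 0 and 9 below, with a median of 0.11 against 0.021 over all genes.

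No overlap between the groups was seen in 11 of the 31 members (35.5%, against 19.4% of all genes). Of these, 9 were higher in AdSirt4, namely the 6 above with SLC2A3, TPI1 and ENO2. The other 2 were lower, HK1 and PFKM. These counts are for CPM. In the second deposited table, read as FPKM (fragments scaled to gene length and library size), the groups overlapped for SLC2A3 and PFKM. There ENO1 lay apart instead, at 1345 FPKM in the highest AdCtrl sample and 1354 in the lowest AdSirt4 sample. For a single gene, a two-sided exact permutation test of 3 against 3 samples cannot give a p below 0.1, which each of the 11 reached. In bulk RNA, a larger share of cells that express a gene and more RNA per cell cannot be told apart.

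**Figure D2:**
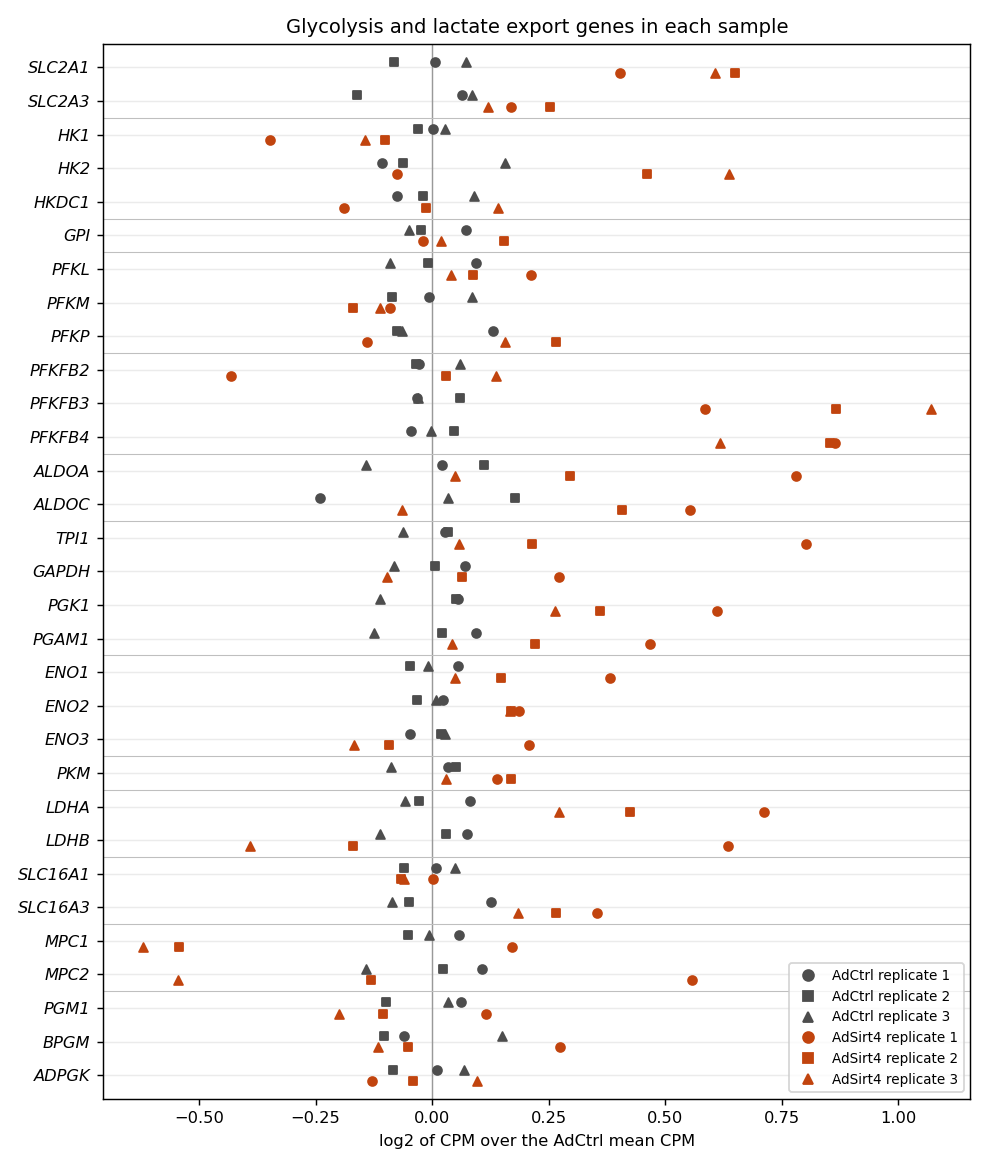
Each of the 31 members, by sample, as the log2 ratio of its CPM to the mean of the 3 AdCtrl samples. Members run in pathway order from glucose uptake to the side branches. The AdSirt4 points of PFKFB3 and PFKFB4 lie farthest to the higher side together, while LDHB, TPI1, MPC1, MPC2 and ALDOA show AdSirt4 replicate 1 well above the other AdSirt4 samples.

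Hexokinases trap glucose in the cell by phosphorylation, and their 3 members differed among themselves. HK1 (chr10:69269984-69401884, plus strand), the housekeeping isoform, had 149, 146 and 151 CPM in AdCtrl and 117, 138 and 134 CPM in AdSirt4. Every AdSirt4 value was below the AdCtrl values, with a log2 fold change of -0.19 (SE 0.10, adjusted p = 0.691) and -0.13 without replicate 1. The inducible isoform HK2 (chr2:74833981-74893359, plus strand) was rare, with 9.01, 9.30 and 10.8 CPM in AdCtrl and 9.21, 13.4 and 15.1 CPM in AdSirt4. AdSirt4 replicate 1 lay within the AdCtrl range and replicates 2 and 3 above it, so the log2 fold change of 0.37 (adjusted p = 0.688) became 0.55 without replicate 1 (adjusted p = 0.010), where HK2 was called. HKDC1, a hexokinase relative, had 234, 243 and 262 CPM in AdCtrl and 216, 244 and 272 CPM in AdSirt4, with the groups overlapping and log2 fold changes of -0.014 with replicate 1 and 0.063 without it. GPI, which converts glucose 6-phosphate to fructose 6-phosphate, ranged over 238 to 259 CPM in AdCtrl and 243 to 274 CPM in AdSirt4, with overlapping groups and a log2 fold change of 0.053, or 0.085 without replicate 1.

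The committed step is catalyzed by phosphofructokinase-1, whose liver, muscle and platelet subunits are PFKL, PFKM and PFKP. PFKM had 121, 115 and 129 CPM in AdCtrl and 114, 108 and 113 CPM in AdSirt4. Its AdSirt4 samples were the lower ones, with a log2 fold change of -0.12 (SE 0.091), or -0.14 without replicate 1, and 628 of its exon bases are shared with SENP1 on the opposite strand. PFKL ranged over 131 to 149 CPM in AdCtrl and 144 to 162 CPM in AdSirt4 and PFKP over 190.4 to 219.6 CPM in AdCtrl and 182 to 241 CPM in AdSirt4. Both overlapped between the groups, with log2 fold changes of 0.12 and 0.10, which were 0.062 and 0.21 without AdSirt4 replicate 1.

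Aldolase, triose phosphate isomerase and the steps down to pyruvate include the most abundant members. ALDOA had 531, 565 and 474 CPM in AdCtrl and 899, 643 and 541 CPM in AdSirt4, with a log2 fold change of 0.41 that was 0.17 without AdSirt4 replicate 1. TPI1, which interconverts the 2 triose phosphates, had 781, 785 and 734 CPM in AdCtrl and 1337, 889.8 and 797 CPM in AdSirt4. In both genes replicate 1 alone lay far above the rest, and TPI1 had a log2 fold change of 0.40 with it and 0.14 without it. GAPDH, the enzyme often used as a reference gene, had 4085, 3905 and 3674 CPM in AdCtrl and 4696, 4067 and 3637 CPM in AdSirt4, with overlapping groups and a log2 fold change of 0.088 that became -0.016 without replicate 1. PGAM1, which moves the phosphate of phosphoglycerate, ranged over 481 to 559.9 CPM in AdCtrl and 540.2 to 725 CPM in AdSirt4, with a log2 fold change of 0.25, or 0.13 without replicate 1. ALDOC, the brain aldolase, stayed between 0.37 and 0.642 CPM in all samples, with log2 fold changes of 0.31 with replicate 1 and 0.20 without it.

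Enolase makes phosphoenolpyruvate, and pyruvate kinase uses it to form ATP and pyruvate. ENO2, the neuronal isoform, had 185, 178 and 183 CPM in AdCtrl and 207, 205 and 205 CPM in AdSirt4. Its AdSirt4 samples lay close together and above AdCtrl, with a log2 fold change of 0.17 (SE 0.086, adjusted p = 0.678) and 0.17 without replicate 1. ENO1, the ubiquitous isoform, ranged over 2553 to 2744 CPM in AdCtrl and 2730.2 to 3440.1 CPM in AdSirt4, with a log2 fold change of 0.20, or 0.10 without replicate 1. PKM, the pyruvate kinase gene of most tissues, ranged over 1629 to 1795 CPM in AdCtrl and 1770.3 to 1949 CPM in AdSirt4, with a log2 fold change of 0.11, or 0.10 without replicate 1. Both overlapped between the groups. ENO3, the muscle isoform, ranged over 22.5 to 23.7 CPM in AdCtrl and 20.7 to 26.9 CPM in AdSirt4 and had a log2 fold change of -0.0095, or -0.13 without replicate 1, but it shares exon bases with PFN1, whose level was 2301% of that of ENO3.

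At the exit of the pathway LDHB, the subunit that favors the oxidation of lactate, had 1915, 1858 and 1684 CPM in AdCtrl and 2822, 1618 and 1386 CPM in AdSirt4. Replicates 2 and 3 of AdSirt4 were below every AdCtrl sample and replicate 1 was far above them, so the log2 fold change was 0.095 with replicate 1 and -0.28 without it (adjusted p = 0.052). MPC1 (chr6:166364919-166383013, minus strand), one subunit of the mitochondrial pyruvate carrier, had 10.4, 9.65 and 9.97 CPM in AdCtrl and 11.3, 6.87 and 6.51 CPM in AdSirt4. It showed the same order, with a log2 fold change of -0.29 (adjusted p = 0.745) with replicate 1 and -0.59 without it, when it was called lower (adjusted p = 0.0070). MPC2, the partner subunit, had 167, 158 and 141 CPM in AdCtrl and 228, 142 and 106 CPM in AdSirt4, which overlapped, with log2 fold changes of 0.032 with replicate 1 and -0.33 without it (adjusted p = 0.193), and its exons share 575 bases with DCAF6.

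The side branches showed overlapping groups in every case. PGM1, which links glucose 6-phosphate to glycogen, ranged over 128 to 143 CPM in AdCtrl and 119 to 148 CPM in AdSirt4, with a log2 fold change of -0.058, or -0.15 without AdSirt4 replicate 1. BPGM, which makes 2,3-bisphosphoglycerate, was rare, at 10.2 to 12.2 CPM in AdCtrl and 10.1 to 13.3 CPM in AdSirt4, with a log2 fold change of 0.042, or -0.088 without it. ADPGK, an ADP-dependent glucokinase, ranged over 66.7 to 74.1 CPM in AdCtrl and 64.7 to 75.6 CPM in AdSirt4, with -0.021, or 0.026 without it.

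The values with and without AdSirt4 replicate 1 differed by more than 0.1 on the log2 scale for 17 of the 31 members. The log2 fold change was lower without it for 13 (ALDOA, ALDOC, TPI1, GAPDH, PGK1, PGAM1, ENO1, ENO3, LDHA, LDHB, MPC1, MPC2 and BPGM) and higher for 4, HK2, PFKP, PFKFB2 and PFKFB3. The sign turned for 7 members, HKDC1, PFKFB2, GAPDH, LDHB, MPC2, BPGM and ADPGK, none of which was called in either fit. Without this sample 7 members were called at an adjusted p under 0.05, against 7.05% of all genes. The 6 that rose were HK2, PGK1, PFKFB3, PFKFB4, LDHA and SLC2A1, against 3.61% of all genes called higher, and the 1 that fell was MPC1. At an unadjusted p under 0.05 there were 17 members, 11 higher and 6 lower, against 24.4% of all genes. This fit compares 3 AdCtrl samples with 2 AdSirt4 samples.

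**Figure D3:**
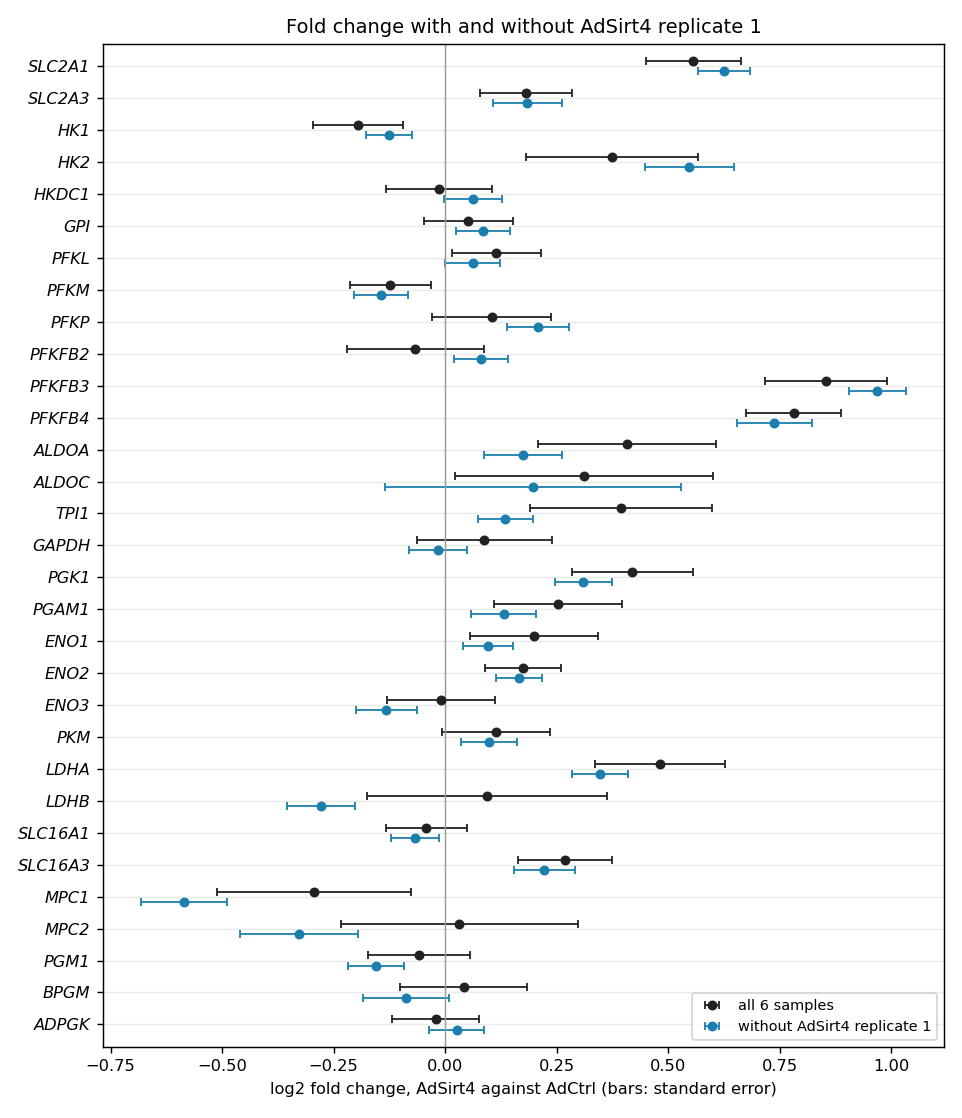
Log2 fold change, AdSirt4 against AdCtrl, of the 31 members from edgeR, with all 6 samples and without AdSirt4 replicate 1, with lines of 1 SE. PFKFB3, PFKFB4 and SLC2A1 keep values above 0.5 in both fits, while LDHB and MPC2 lie near 0 with all samples and below 0 without replicate 1.

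Gene length went with these differences. Over the 31 members, the log2 CPM of AdSirt4 replicate 1 less the mean of replicates 2 and 3 had a Spearman correlation of -0.78 with gene length, given as a description, since all points share the same libraries. The 8 members under 2 kb had a median of 0.49, near the 0.55 of all tested genes of that length. The 14 members from 2 to under 4 kb had 0.089 against 0.15, and the 9 members of 4 kb or more had -0.23 against -0.33. PGK1, at 5.50 kb, stood above its length class with 0.30, and LDHB, at 1.49 kb, was the highest of all with 0.91. PFKP, at 2.99 kb, stood below its length class with -0.35, the lowest of the members from 2 to under 4 kb.

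**Figure D4:**
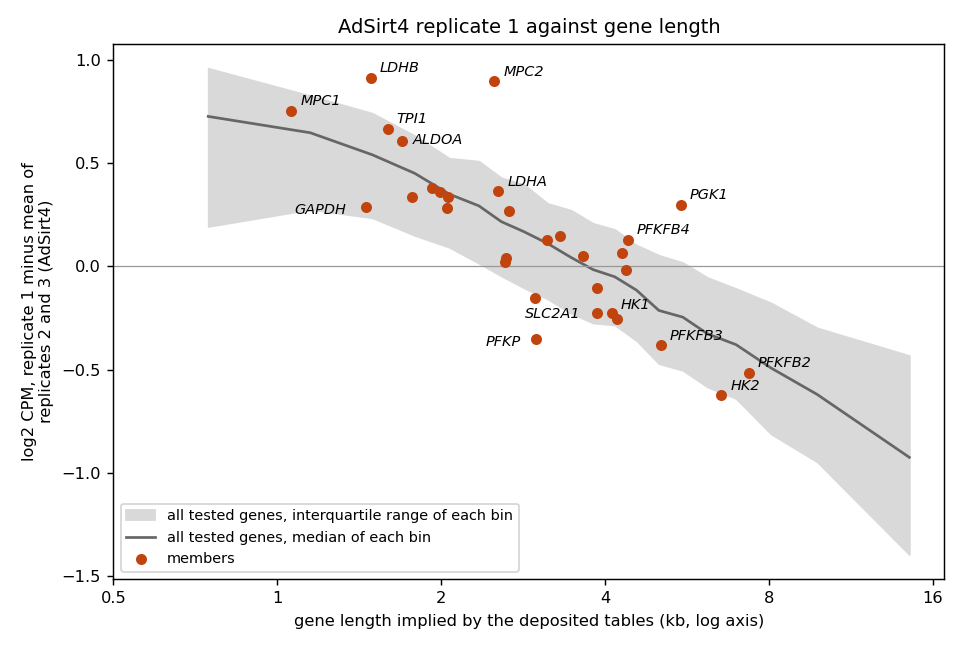
Gene length in kb on a log axis, against the log2 CPM of AdSirt4 replicate 1 minus the mean of replicates 2 and 3. The line and band are the median and the interquartile range of all tested genes in 20 bins of length, and points are the 31 members. Most members follow the falling line, from 0.91 for LDHB to -0.62 for HK2. LDHB, MPC2 and PGK1 lie above the band, PFKP lies below it, and ADPGK and HK2 lie at its lower edge.

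When the trend on gene length was removed from every library and all 6 samples were kept, 12 members had an unadjusted p under 0.05 (10 higher and 2 lower), against 13.7% of all genes. PFKFB3 alone was called, with a log2 fold change of 0.90 and an adjusted p of 0.021, against 0.0677% of all genes. With the replicate number as a block in the same fit its adjusted p was 0.085, so that call was lost. Without the block LDHA had a log2 fold change of 0.43, PGK1 0.50, SLC2A1 0.56 and PFKFB4 0.81, and MPC1 had -0.45. With the trend removed and AdSirt4 replicate 1 left out together, 11 members were called, 9 higher and 2 lower (MPC1 and LDHB), against 8.18% of all genes.

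Levels between genes were compared per length, from the second deposited table, read as FPKM (fragments scaled to gene length and library size), with the mean ± SD of 3 AdCtrl samples. GAPDH was highest at 2695 ± 106 FPKM, and ENO1 at 1300.3 ± 71.2 and LDHB at 1235 ± 55.9 followed within each other's spread. PKM (665 ± 15.7) and TPI1 (484 ± 2.89) stood clear of each other, while ALDOA (311 ± 17.6) and LDHA (298 ± 15.7) did not. PGAM1 followed at 257 ± 14.8 and PGK1 at 126 ± 4.90, and lower levels were those of SLC2A1 at 34.2 ± 2.95, PFKFB3 at 24.6 ± 0.61, PFKFB4 at 3.17 ± 0.0677 and HK2 at 1.38 to 1.75 FPKM. ALDOC was last at 0.229 ± 0.0314. In AdSirt4, PFKFB3 stood at 43.1 ± 9.12 and SLC2A1 at 49.3 ± 6.67 FPKM, and LDHA at 404 ± 43.9 was level with ALDOA at 400.4 ± 85.1. Counts of GAPDH could be shared with pseudogenes, of which GENCODE v29 lists 62, and PGAM1 has 13 and LDHA has 6. Looked up by symbol, none of these pseudogenes was among the genes of the deposited counts, and sharing of reads was not tested.

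All 31 members together took up 1.659, 1.602 and 1.552% of the counts in the AdCtrl samples and 1.954, 1.749 and 1.612% in the AdSirt4 samples. AdSirt4 replicate 1 was the highest, and replicate 3 lay within the AdCtrl range, so the groups overlapped. GAPDH made up 24.2 to 24.8% of the members' summed CPM in AdCtrl and 22.6 to 23.4% in AdSirt4.

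For 9 pairs of members that carry out the same step, the ratio within each sample was compared on the log2 FPKM scale. The LDHA to LDHB ratio was -2.04, -2.11 and -1.99 in AdCtrl and -1.97, -1.46 and -1.39 in AdSirt4. LDHA thus made up 19.5, 18.8 and 20.1% of the summed FPKM of the pair in AdCtrl and 20.3, 26.6 and 27.6% in AdSirt4, where replicate 1 lay next to the AdCtrl samples. The mean difference was 0.44, and 0.62 without replicate 1.

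The HK2 to HK1 ratio was -4.62, -4.55 and -4.38 in AdCtrl and -4.21, -3.98 and -3.79 in AdSirt4, a difference of 0.53 with HK2 at 3.65 to 6.51% of the pair over all samples. SLC16A3 over SLC16A1, or MCT4 over MCT1, was 0.44, 0.32 and 0.17 and 0.69, 0.63 and 0.52, a difference of 0.30. SLC2A3 over SLC2A1 went the other way, by -0.37. In these 4 pairs the groups did not overlap, which gave the smallest p that an exact permutation test of 3 against 3 samples allows (0.1, or 0.225 adjusted over the 9 pairs), so no pair could pass the threshold. The other 5 pairs (PFKP/PFKL, PFKFB4/PFKFB3, ALDOC/ALDOA, ENO2/ENO1 and MPC1/MPC2) overlapped, and MPC1 over MPC2 differed by -0.29.

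**Figure D5:**
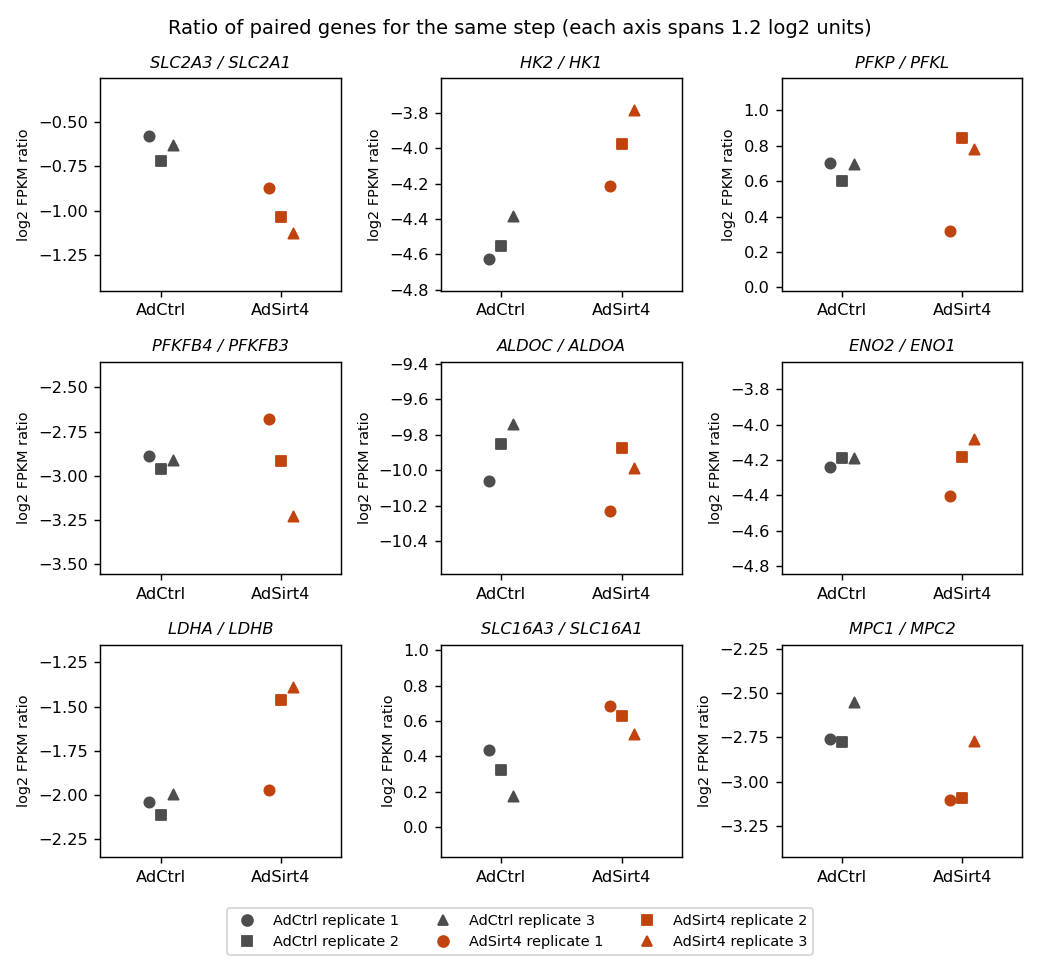
Log2 ratio of FPKM within each sample for the 9 pairs of members that carry out the same step, by group. Points are the 3 samples of each group, with shape giving the replicate number, and every axis spans the same number of log2 units. The groups lie apart for SLC2A3/SLC2A1, HK2/HK1, LDHA/LDHB and SLC16A3/SLC16A1 and overlap for the other 5 pairs.

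Genes around the pathway were taken from 7 lists with 129 genes, of which 114 were tested. None was called by edgeR's quasi-likelihood test with all 6 samples, 31 had an unadjusted p under 0.05 (7.93% of all genes), DESeq2 called 13 (1.16% of all genes) and limma voom called 31 (9.51% of all genes). Pyruvate dehydrogenase and its regulators decide whether pyruvate is oxidized, and of the 12 genes PDK1, a kinase that switches the complex off, lay higher and PDK4 and PDP2 lower at an unadjusted p under 0.05. PDK1 had 32.5, 32.3 and 32.2 CPM in AdCtrl and 47.3, 52.7 and 49.3 CPM in AdSirt4, without overlap. Its log2 fold change was 0.62 (edgeR adjusted p = 0.239). In FPKM its groups overlapped, at 3.32, 4.03 and 4.91 in AdCtrl and 4.76, 5.79 and 5.21 in AdSirt4. With limma on log2(FPKM + 1), 0 of the 12 genes were higher at an unadjusted p under 0.05. PDK4, another kinase of the complex, had 29.5, 21.3 and 21.9 CPM in AdCtrl and 14.1, 15.2 and 13.7 CPM in AdSirt4, with a log2 fold change of -0.76, and the phosphatase PDP2 had -0.34. All 3 were called in the same directions without AdSirt4 replicate 1.

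Of the 28 listed hypoxia targets outside glycolysis, 16 were higher and 1 lower at an edgeR unadjusted p under 0.05, where 4.43% of all genes were higher. Their median log2 fold change was 0.45, while 6 of the 31 members were higher and the median over all 31 was 0.11. The list was written with earlier results of these data known, so its share is no independent evidence. NDRG1, a growth-regulated gene induced by hypoxia, had 86.4, 84.5 and 78.8 CPM in AdCtrl and 181, 166 and 152 CPM in AdSirt4 (log2 fold change 1.00, adjusted p = 0.089). BNIP3L, a mitophagy receptor, had 0.49, and EGLN1, the prolyl hydroxylase that marks HIF for degradation, had 0.44, both without overlap. HIF1A itself, among 8 tested regulators, was at 912, 838 and 941 CPM in AdCtrl and 620.0, 734 and 783 CPM in AdSirt4, lower in every AdSirt4 sample (log2 fold change -0.33, adjusted p = 0.612). Without AdSirt4 replicate 1 HIF1A had -0.24 and was called lower (adjusted p = 0.038). ARNT, the partner of HIF1A, had -0.29 with that sample and -0.11 without it, and VHL had 0.23 and 0.061. The 16 higher targets and the 6 members lay higher in the same libraries. The labels do not record the oxygen level, and the cause of these differences was not tested.

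In the remaining lists more genes were lower than higher at an unadjusted p under 0.05, a threshold that 7.93% of all genes passed. Of 32 other glycolysis genes, 5 had an unadjusted p under 0.05 and all 5 were lower, among them the glucose transporters SLC2A2 (log2 fold change -1.34), SLC2A4 (-0.48) and SLC2A5 (-0.82), none of which exceeded 6.01 CPM in any sample. Gluconeogenesis had 1 lower gene of 5, the pyruvate carboxylase gene PC (-0.30), with the log2 fold change of PCK2 at -0.25 and FBP2 at 0 to 0.283 CPM. In the pentose phosphate pathway, the isomerase gene RPIA had a log2 fold change of 0.38, or 0.13 without AdSirt4 replicate 1, and the transketolase gene TKT had -0.14, or -0.21 without it, where it was called lower (adjusted p = 0.038). Glycogen metabolism had 1 higher and 2 lower genes of 19, with log2 fold changes of PPP1R3B at 0.33, GYG2 at -0.22 and PPP1R3C at -0.31.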

How the data were processed

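Poly(A) RNA of 6 samples was sequenced. The submitters' processing notes name fastp 0.21.0, HISAT2 2.1.0, StringTie 2.1.5, DESeq2 1.30.1 and hg38, without parameters. The authors deposited raw counts per gene and a second table, whose unit is not named. Its values behave as FPKM, and the deposited table was read as FPKM. Groups and replicate numbers came from the sample titles, while the cell-line field of the labels carries a different number for each sample. The labels mention no strand marking. No column was without a sample.

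The 31 members, the related lists and the markers were chosen with earlier results of these data known, so no list is independent evidence. All members were named, as were up to 3 genes of each related list with the smallest p. A gene that meets this rule is not reported here.

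Counts were analysed in R 4.3.3 with edgeR 4.0.16 (filterByExpr with a minimum count of 10, TMM, robust quasi-likelihood test, group only) and Benjamini-Hochberg adjustment over 17720 genes at 0.05. CPM are TMM-scaled. The script was tested on simulated data. Isoenzyme ratios used FPKM with a pseudocount of 0.1. Alternatives were DESeq2 1.42.0, RLE scaling, other count filters, the replicate block, the gene-length trend of every library taken out, limma 3.58.1 (voom with sample quality weights, or log2 FPKM), ratios of CPM or without a pseudocount, and each sample left out in turn. Tables and figures used Python 3.11.15, pandas 2.3.3, scipy 1.17.1 and matplotlib 3.10.9. Gene positions and pseudogenes came from GENCODE v29, and promoters from RefSeq on GRCh38.p14. Gene length was taken from the ratio of the tables.

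A count of 0 allows up to 3 counts, or 0.0348 to 0.077 CPM, for counting error only. The chi-square per gene between replicates was 9.99 to 237, so no sample was a copy. Deviations from group means correlated at 0.178, 0.159 and 0.176 for samples with the same replicate number and at -0.188 to 0.0298 otherwise. By these correlations, and not by a label, the numbers may pair the samples. The difference of each sample from the others of its group also correlated with gene length (Spearman). In AdCtrl and AdSirt4 this was -0.18 and -0.58 for replicate 1, -0.022 and 0.50 for replicate 2, and 0.17 and 0.51 for replicate 3. For AdSirt4 replicates 2 and 3 the others include replicate 1, so their values are not independent of its trend. The part of gene length in the pairing was not tested.

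Markers of other cell types were summed as a check. The 6 fibroblast markers had 41.7 to 45.1 CPM in AdCtrl and 39.9 to 40.8 in AdSirt4, with COL3A1 at 0. The 5 endothelial markers had at most 0.742 CPM. The 5 leukocyte markers had 34.4 to 39.8 and 38.6 to 49.5 CPM, with CD3E at 0. Most of that sum was CD68, with 31.6 to 46.5 CPM over all samples.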

Additional observations from a re-analysis of the deposited data

How the results depend on the processing

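Of 556 values of the members under the alternatives, 478 kept their direction and side of the threshold, 29 (10 genes) passed it only under the alternative, and 49 (10 genes) changed sign. The 21 other members kept 1 direction throughout. The fit with the length trend removed and AdSirt4 replicate 1 left out was chosen after seeing the data. The number of all genes called (2) became 206 with DESeq2, 5 with the filter of 1 count, 4 with the filter of 10 counts, 1 with the replicate block, 12 with the length trend removed, 1685 with voom, 5 with limma on log2(FPKM + 1), 5 with limma on log2(FPKM + 0.1), 0 with limma without a filter, 1450 with the length trend removed and AdSirt4 replicate 1 left out and 0 to 1250 with 1 sample left out. The number of members called (0) became 3 with DESeq2, 1 with the length trend removed, 8 with voom, 11 with the length trend removed and AdSirt4 replicate 1 left out and 0 to 7 with 1 sample left out. The number of members at an unadjusted p under 0.05 (6) became 12 with the length trend removed, 10 with the length trend removed with the replicate block, 17 with voom, 0 with limma without a filter, 19 with the length trend removed and AdSirt4 replicate 1 left out and 3 to 17 with 1 sample left out. The number of related genes called (0) became 13 with DESeq2, 1 with the filter of 1 count, 1 with the length trend removed, 1 with the length trend removed with the replicate block, 31 with voom, 1 with limma on log2(FPKM + 1), 1 with limma on log2(FPKM + 0.1), 30 with the length trend removed and AdSirt4 replicate 1 left out and 0 to 27 with 1 sample left out. The number of members whose groups did not overlap (11) became 11 to 17 with 1 sample left out. This number could not fall, since groups that lie apart stay apart when a sample is dropped, so it is no check. With the replicate block, which paired samples would call for, 0 members were called and 6 had an unadjusted p under 0.05. In that fit the edgeR adjusted p was 0.639 for PFKFB3 and PFKFB4 and 0.667 for SLC2A1. With the length trend removed, the block ended the call of PFKFB3. The member calls of DESeq2, voom and the fits without AdSirt4 replicate 1 were not refitted with the block. AdSirt4 replicate 1 was the sample whose omission gave every highest count, and leaving out AdCtrl replicate 3 gave the 3 members at an unadjusted p under 0.05. The cause of these differences was not tested.

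Log2 values that changed sign were small in most cases, and none was called with all samples. HKDC1 (-0.014) had 0.0037 with the length trend removed, 0.0016 with the length trend removed with the replicate block, 0.029 with voom, 0.054 with the length trend removed and AdSirt4 replicate 1 left out and -0.10 to 0.063 with 1 sample left out. GPI (0.053) had -0.032 with limma on log2(FPKM + 1), -0.033 with limma on log2(FPKM + 0.1) and -0.032 with limma without a filter. PFKFB2 (-0.067) had 0.013 with the length trend removed, 0.012 with the length trend removed with the replicate block, 0.052 with voom, 0.038 with the length trend removed and AdSirt4 replicate 1 left out and -0.18 to 0.081 with 1 sample left out. GAPDH (0.088) had -0.015 with the length trend removed, -0.018 with the length trend removed with the replicate block and -0.016 to 0.17 with 1 sample left out. ENO3 (-0.0095) had -0.13 to 0.064 with 1 sample left out. LDHB (0.095) had -0.056 with the length trend removed, -0.071 with the length trend removed with the replicate block, -0.21 with voom, -0.0081 with limma on log2(FPKM + 1), -0.0082 with limma on log2(FPKM + 0.1), -0.0081 with limma without a filter, -0.22 with the length trend removed and AdSirt4 replicate 1 left out and -0.28 to 0.29 with 1 sample left out. MPC2 (0.032) had -0.037 with the replicate block, -0.042 with the length trend removed, -0.082 with the length trend removed with the replicate block, -0.23 with voom, -0.069 with limma on log2(FPKM + 1), -0.071 with limma on log2(FPKM + 0.1), -0.069 with limma without a filter, -0.31 with the length trend removed and AdSirt4 replicate 1 left out and -0.33 to 0.25 with 1 sample left out. PGM1 (-0.058) had -0.15 to 0.0090 with 1 sample left out. BPGM (0.042) had -0.036 with the length trend removed, -0.032 with the length trend removed with the replicate block, -0.054 with voom, -0.049 with the length trend removed and AdSirt4 replicate 1 left out and -0.088 to 0.12 with 1 sample left out. ADPGK (-0.021) had 0.038 with the length trend removed and AdSirt4 replicate 1 left out and -0.084 to 0.026 with 1 sample left out. FBP2 (0.15) had -0.11 with the replicate block, -0.12 with the length trend removed with the replicate block and -0.30 to 0.59 with 1 sample left out. The ratio PFKP/PFKL (-0.018) had -0.12 to 0.15 with 1 sample left out. The ratio PFKFB4/PFKFB3 (-0.022) had -0.15 to 0.12 with 1 sample left out. The ratio ENO2/ENO1 (-0.017) had -0.087 to 0.074 with 1 sample left out.

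Depth was sufficient to test all 31 members, but ALDOC, at under 1 CPM, rests on few counts. With 3 samples against 3, no exact permutation test of a single gene or ratio could pass the threshold. Several members share exon bases with a neighbor on the opposite strand (PFKFB2, PFKM, ENO3, SLC16A3, MPC2 and PGM1 among them), and only the reads in those bases cannot be assigned without strand. On the same strand, PFKFB4 shares 289 bases with UCN2 and PGK1 shares 97 with ATP7A, and strand would not separate those reads. The mean level of UCN2 was 3.64% of that of PFKFB4, and that of ATP7A was 1.78% of that of PGK1.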
